A study of Mus musculus with 16 samples.

Results

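The mitochondrial protein import machinery was followed over a dose series of beta-estradiol in G1E-ER4 cells. Its members were taken by symbol: every gene whose symbol begins with Timm or Tomm, plus Samm50, Mtx1, Mtx2, Pam16, Grpel1, Pmpca and Pmpcb. This gave 32 of the 23410 symbols in the count table, of which 30 had enough counts to be tested among 10080 genes. The other 2, Tomm20l and Timm8a2, had at most 2 and 3 counts in any library and were not tested.

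G1E-ER4 is a mouse erythroid progenitor line without its own GATA1 protein that makes a GATA1–ER fusion, in which an estrogen receptor domain holds GATA1 inactive until ligand binds. All groups were this line, grown with erythropoietin and stem cell factor in a serum-containing Iscove medium. The control group had 0 nM beta-estradiol, and the others had 12.5, 25, 50, 75, 100, 150 or 200 nM, which moves the fusion protein into the nucleus. Each of the 8 doses had 2 libraries, 16 in all. Nothing in the labels says that replicates came from separate cultures, so p-values measure only the spread between these libraries. How long the cells were exposed is not stated by the labels. No cells without the fusion protein were among the samples, so effects of beta-estradiol itself and of GATA1 cannot be told apart.

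Most mitochondrial proteins are made in the cytosol and carried in through membrane complexes. The TOM complex of the outer membrane receives them. From there the TIM23 complex and its PAM motor bring proteins with a presequence into the matrix, where the processing peptidase removes that sequence. Small TIM chaperones escort hydrophobic proteins across the intermembrane space, either to the TIM22 complex, which inserts carriers into the inner membrane, or to the SAM complex, which inserts barrel proteins into the outer membrane. Red cell precursors need import for heme and iron-sulfur cluster synthesis and lose their mitochondria at the end of maturation.

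Libraries held 9393156 to 15802510 counts. The share of counts in Rn45s, the ribosomal RNA precursor, was between 9.53% and 9.61% at 0 nM and between 14.6% and 15.3% at 200 nM. With Rn45s and the globin genes left out of the scaling, 24 members fell and 2 rose at 200 nM, the same counts as with them. Of 12 erythroid markers 10 were in the table, and their summed level was 2530 to 2620 CPM (counts per 1000000, scaled by TMM) at 0 nM and 30300 to 30800 CPM at 200 nM. Megakaryocyte markers, of which 5 of 8 were tested, summed to 18.0 to 18.8 CPM at 0 nM and 440 to 454 CPM at 200 nM, with Vwf and Ppbp at 0 counts in both groups. Their part in the results was not tested. The 8 granulocyte and macrophage markers summed to 0.613 to 1.64 CPM at 0 nM and 4.66 to 4.88 CPM at 200 nM. The 6 mast cell markers summed to at most 2.33 CPM at these 2 doses, and fibroblast markers were at 0. Lymphocyte and endothelial markers summed to at most 0.553 CPM.

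The import machinery was lower at the higher doses. Its 32 genes took 0.511% and 0.509% of all counts in the 0 nM libraries and 0.232% and 0.228% in the 200 nM libraries. These are shares of raw counts, Rn45s included, without TMM scaling. The TMM factors of the same libraries were 1.099 and 1.101 at 0 nM and 0.846 and 0.843 at 200 nM, so the scaled fall is smaller. Of the 30 members tested 24 fell and 2 rose at 200 nM against 0 nM (quasi-likelihood F test of edgeR, with p adjusted by Benjamini-Hochberg over all genes and called under 0.05). Over all genes tested, 39.5% were called lower and 40.5% higher in that comparison. The median log2 fold change of the members was -0.70 and that of all genes 0.02. At least 2-fold falls were seen in 7 members. Timm23, the least changed of these 7, lay at percentile 16.5 of the log2 changes of all genes tested. Thus 16.5% of all genes fell at least as much as Timm23. Both 200 nM libraries were below both 0 nM libraries for 24 members, 80.0% of those tested, against 44.3% of all genes. In bulk samples fewer cells of a type and less RNA per cell cannot be told apart.

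Apart from the shares of raw counts, these changes are relative to the TMM scaling, which holds the bulk of genes level. Scaled by library size alone the median gene moved by -0.36 at 200 nM on the log2 scale, the members by -1.08, and 28 members fell and 0 rose. The 2 members that rose, Timm8b and Timm17b, turned to -0.04 and -0.15 under that scaling. With Rn45s and the globin genes left out of the scaling, both were still called higher at 200 nM. Their rise at 200 nM thus depends on the scaling chosen, and which scaling is nearer to the amount per cell was not tested.

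**Figure D1:**
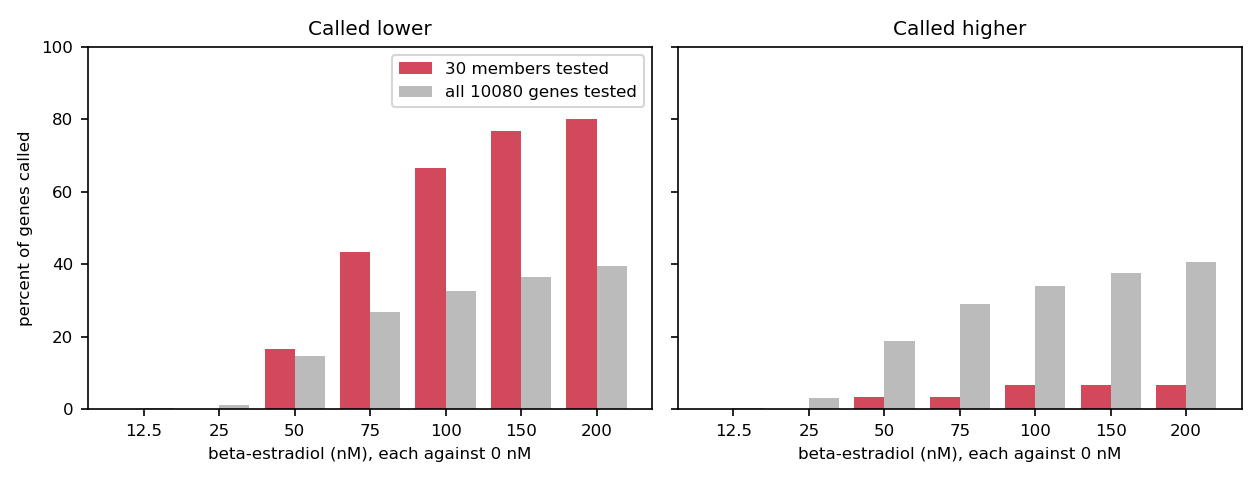
Percent of genes called lower (left) and higher (right) at each dose against 0 nM, for the 30 members tested (red bars) and all 10080 genes tested (grey bars). At 50 nM the share of members called lower, 16.7%, was close to the 14.7% of all genes; at 200 nM it was 80.0% against 39.5%. At most 6.67% of members were called higher at any dose.

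The fall was spread over the upper part of the dose range. At 12.5 nM no member was called in either direction (edgeR; 3 higher and 0 lower at an unadjusted p under 0.05, and 0 called with DESeq2), while among all genes 0.278% rose and 0.228% fell. At 25 nM again none was called (4 higher and 1 lower unadjusted, 0 called with DESeq2), against 3% and 1.02% of all genes. The first calls came at 50 nM, where Tomm40, Tomm5, Tomm34, Timm50 and Mtx2 fell and Timm8b rose. That is 16.7% of the members lower, close to the 14.7% of all genes, and 3.33% higher, against 18.8%. Without 0 nM replicate 1 the lower members at 50 nM numbered 3.

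At 75 nM 13 members fell and 1 rose, where 26.9% of all genes fell and 29% rose. At 100 nM 20 fell and 2 rose, Timm8b and Pam16, against 32.5% and 34.1% of all genes. At 150 nM 23 fell and 2 rose, Timm8b and Timm17b, against 36.6% and 37.7%. The median log2 change of the members went from 0.02 at 50 nM to -0.11, -0.26, -0.50 and -0.70 at 75, 100, 150 and 200 nM. The same median over all genes stayed between 0.00 and 0.02 at these doses. The doses share the 0 nM libraries.

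Steps between neighbouring doses do not use 0 nM above 12.5 nM. No member was called between 12.5 and 25 nM (edgeR; 0 at an unadjusted p under 0.05, 0 with DESeq2), where 0.893% of all genes rose and 0.198% fell. From 25 to 50 nM 6 members fell, with 12.1% of all genes lower, and Timm8b rose, with 14.1% higher. That rise was called neither with DESeq2 nor with any of the 4 libraries left out. From 50 to 75 nM 14 fell and 0 rose (all genes 15.8% and 16.6%), and from 75 to 100 nM 15 fell and 0 rose (12.8% and 14.7%). The last count depended on the libraries and the tool, at 7 without 75 nM replicate 2, 9 without 100 nM replicate 1, 8 without 100 nM replicate 2, 10 without 75 nM replicate 1, and 8 with DESeq2. From 100 to 150 nM 21 members fell and Timm17b rose (all genes 20.2% and 20.6%), and from 150 to 200 nM 20 fell and 0 rose (19.9% and 19.4%). The rise of Timm17b was not called with DESeq2, nor without 100 nM replicate 2 or 150 nM replicate 1. The largest downward step was that from 100 to 150 nM in 13 members and that from 150 to 200 nM in 11. The 13 include Pam16, which was not called lower at any dose. Both steps are wider in nM than every step below 100 nM, and the same count was not made over all genes.

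Over all doses together 26 members changed, 86.7% of those tested, which is close to the 86.3% of all genes. On a slope against log2 dose 23 members fell and 2 rose, where 37.8% of all genes fell and 39.7% rose. No member was called higher or lower at an intermediate dose than at both 0 and 200 nM with edgeR, and 0 were called with DESeq2. In edgeR 3 members peaked at an unadjusted p under 0.05 at each of 12.5, 25 and 50 nM. Tomm6 was called as a peak at 50 nM without a filter on low counts and with a replicate block, and Timm8b with library size alone. Without 50 nM replicate 1 Tomm6 was called as a peak at 50 nM. Of all genes 0.119%, 0.427%, 2.25%, 3.09%, 2.58% and 0.794% peaked or dipped in this way at 12.5, 25, 50, 75, 100 and 150 nM.

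**Figure D2:**
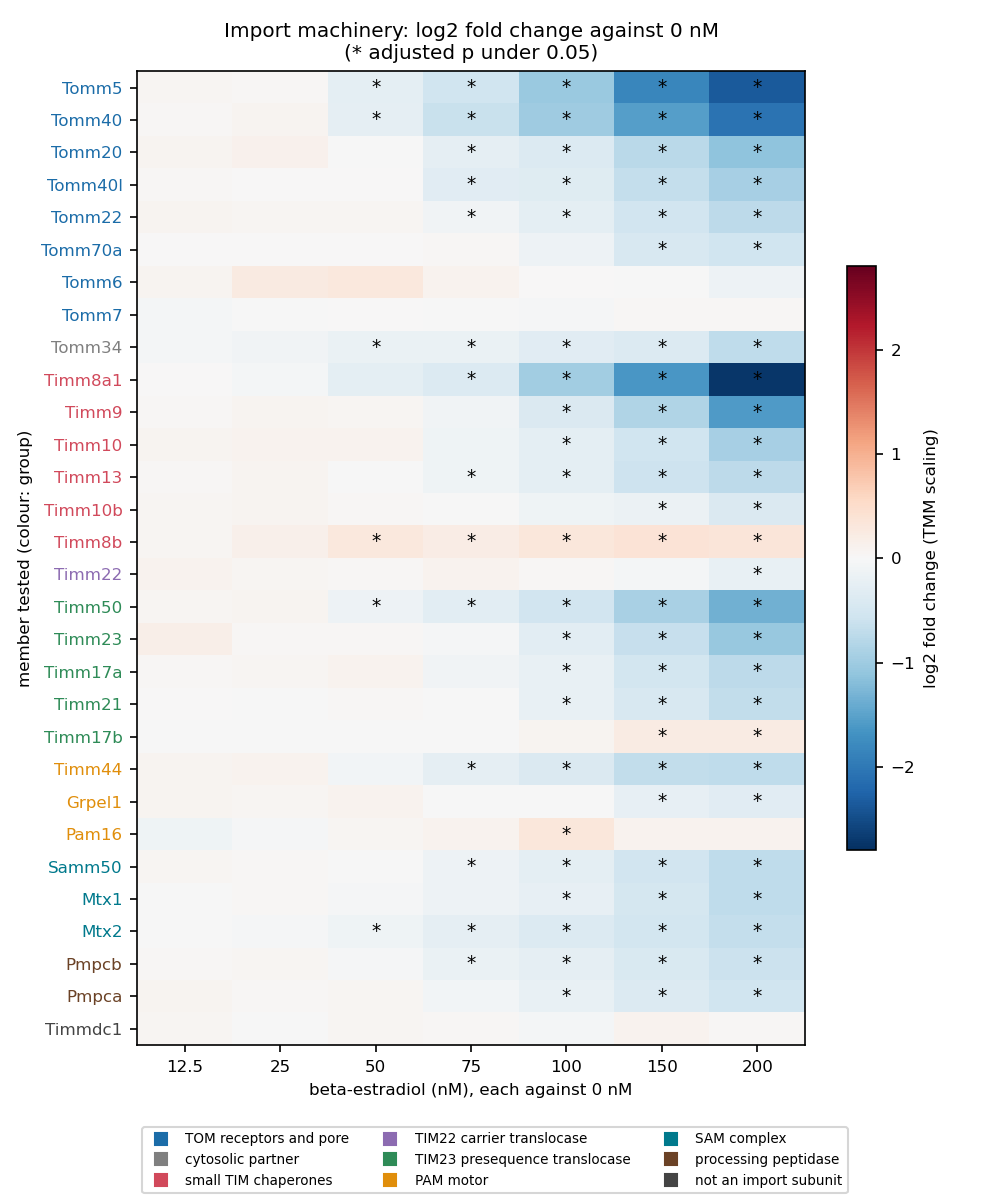
Log2 fold change of the 30 members tested (rows, label colour by group) at each dose against 0 nM (columns), with TMM scaling. Stars mark an adjusted p under 0.05. Blue deepens from 50 nM in Tomm40 and Tomm5 and from 75 or 100 nM in most rows. Timm8b is pale red from 25 nM upward and Timm17b only at 150 and 200 nM. Tomm6 is pale red at 25 and 50 nM without a star, and Pam16 at 100 nM with one. Tomm7 and Timmdc1 stay near white.

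The TOM complex held some of the steepest falls and also members that did not pass the test. Of its 8 members tested 6 fell at 200 nM, where 39.5% of all genes did, with a median log2 change of -0.84. Tomm40 (chromosome 7, 19701313 to 19715438, minus strand, GRCm38) encodes the barrel through which nearly all imported proteins pass. Its libraries had 556 and 551 CPM at 0 nM, 553 and 584 (12.5 nM), 581 and 580 (25 nM), 462 and 467 (50 nM), 352 and 369.6 (75 nM), 272 and 281 (100 nM), 190.4 and 187 (150 nM) and 137 and 127 (200 nM). From 50 nM upward each dose was below all lower doses with no overlap. The log2 fold change at 200 nM was -2.07 ± 0.04 (standard error; adjusted p = 9.91e-41), and that at 50 nM was -0.25 ± 0.03 (adjusted p = 3.09e-08).

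Tomm5 (chromosome 4, 45105208 to 45108114, minus strand) encodes a small subunit that sits against the pore. It stood at 143 and 145 CPM at 0 nM, 145 and 154 (12.5 nM), 141 and 154 (25 nM), 124 and 116 (50 nM), 97.6 and 97.3 (75 nM), 72.3 and 67.96 (100 nM), 37.1 and 44.97 (150 nM) and 29.02 and 27.3 (200 nM). As for Tomm40, the doses from 50 nM upward did not overlap. Its log2 fold change at 200 nM was -2.36 ± 0.07 (adjusted p = 4.83e-32), with its largest step, -0.79, from 100 to 150 nM.

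Tomm7, another small subunit, which takes part in the assembly of the complex, did not follow. Its libraries lay between 162 and 181 CPM at every dose, and the log2 fold change at 200 nM was 0.03 ± 0.04 (adjusted p = 0.608). With library size alone it was -0.36 (adjusted p = 1.21e-09), and it was -0.01 without a filter on low counts. Tomm6, the other small subunit, was at 35.4 and 42.99 CPM at 0 nM, 41 and 41.4 (12.5 nM), 45.6 and 47.7 (25 nM), 40.9 and 55.5 (50 nM), 40.4 and 44.1 (75 nM), 37.3 and 41.2 (100 nM), 37.4 and 40.8 (150 nM) and 33.1 and 37.5 (200 nM), and the 0 and 200 nM libraries overlapped (log2 change at 200 nM -0.15 ± 0.13, adjusted p = 0.323). Of its merged exon length 76.0% overlaps other annotated genes, which reads without strand cannot separate. Usp49, among the genes that overlap it, had 79 to 243 counts across the libraries.

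The receptors had smaller log2 changes than Tomm40. Tomm20 (chromosome 8, 126930667 to 126945844, minus strand) is the main receptor for presequences. It had 189.6 and 184 CPM at 0 nM, 191 and 201 (12.5 nM), 198 and 205 (25 nM), 192 and 179 (50 nM), 153 and 159.8 (75 nM), 144 and 145 (100 nM), 105 and 116 (150 nM) and 87.05 and 84.9 (200 nM). All libraries from 75 nM upward were below those of the lower doses. The change at 200 nM was -1.12 ± 0.05 (adjusted p = 3.96e-25). Tomm22, the central receptor, went from 326 and 327 to 196 and 197 CPM (-0.73 ± 0.04). Tomm70a, the receptor of carrier precursors, went from 79.0 and 72.2 to 45.1 and 56.6 CPM (-0.57 ± 0.07, and -0.76 to -0.42 over fits that drop 1 library of either dose). The groups did not overlap in any of the 3. Tomm34, a cytosolic partner of chaperones in import, went from 167 and 173 to 108 and 101 CPM (-0.70 ± 0.05).

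Tomm40l, a relative of Tomm40, had 46.4 and 46.7 CPM at 0 nM, 47.3 and 48.1 (12.5 nM), 46.4 and 47.9 (25 nM), 47.96 and 46.2 (50 nM), 36.03 and 38.7 (75 nM), 38.7 and 34.5 (100 nM), 31.3 and 27.2 (150 nM) and 23.7 and 24.8 (200 nM). Both libraries of each dose from 75 nM upward were below all those up to 50 nM (log2 change at 200 nM -0.94 ± 0.09). Its exons overlap those of Nr1i3 on the other strand over 64.3% of their length, but Nr1i3 itself had at most 3 counts in any library. In each library the ratio of Tomm40l to Tomm40 counts is free of the library scaling. That ratio rose from 0.0834 and 0.0848 without beta-estradiol to 0.174 and 0.195 with 200 nM.

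**Figure D3:**
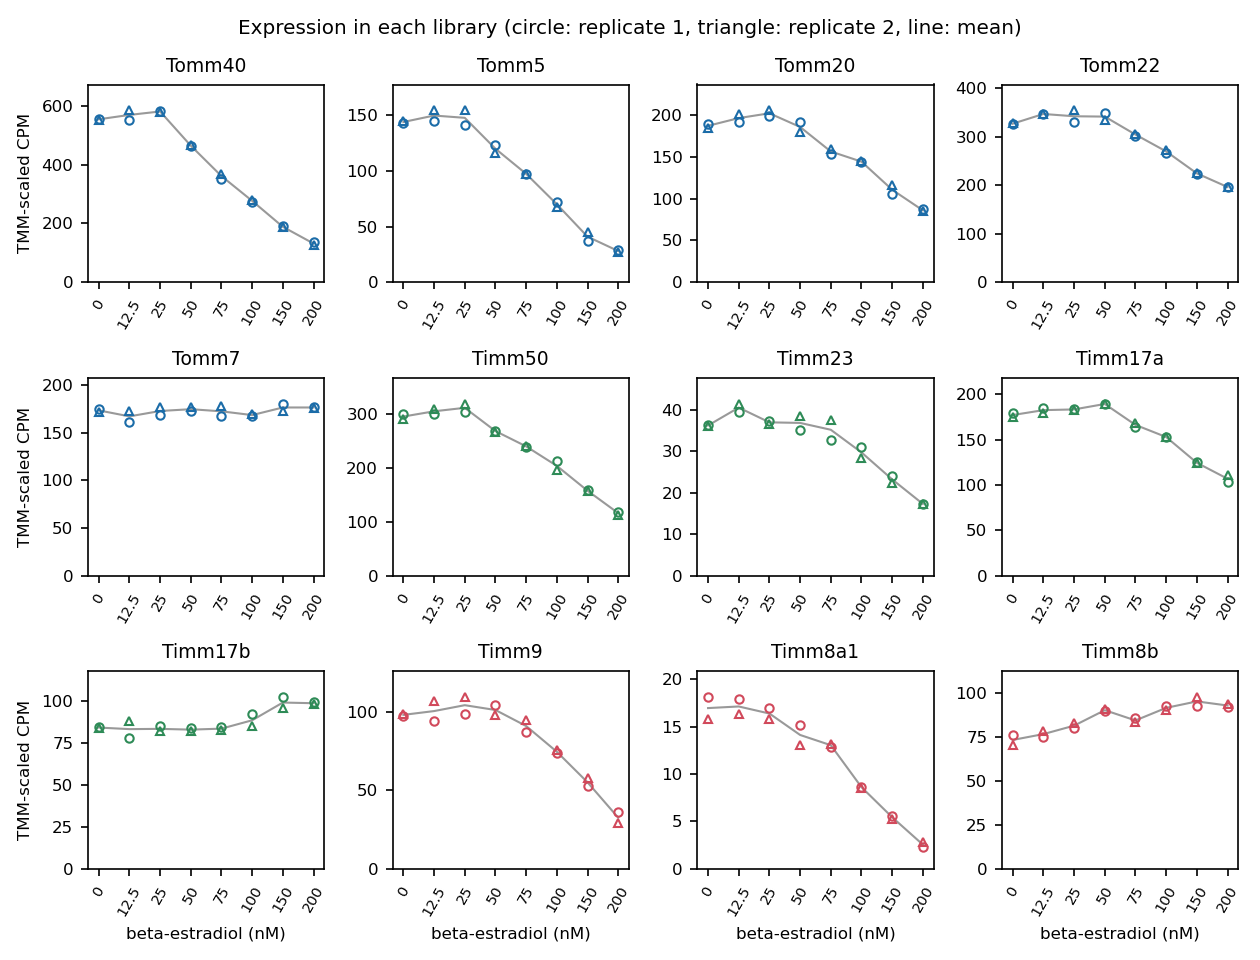
TMM-scaled CPM of 12 members in each of the 16 libraries against dose, with every axis starting at 0 and doses evenly spaced. Tomm40, Tomm5 and Timm50 descend from 50 nM and the other members that fell from 75 or 100 nM, with replicates close together, while Tomm7 is level between 162 and 181 CPM and Timm8b ends above its start.

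Promoter sequences are shown for 3 TOM members, Tomm5 with one of the steepest falls and 2 receptors with smaller falls, and for Timmdc1, which is no import subunit and did not pass the test. RefSeq (GRCm38.p6) gave promoters for 29 of the 32 members, in 31 entries, of which 27 have the bases after their start inside a GENCODE transcript of the gene. For Tomm20 the RefSeq start lies upstream of the GENCODE gene, so its window is not that of the GENCODE start. The 250 bases before the RefSeq start are printed 5′ to 3′ on the gene's strand: chr4:45108114-45108363 (minus) for Tomm5, chr15:79670618-79670867 (plus) for Tomm22, chr8:126945922-126946171 (minus) for Tomm20 and chr16:38522664-38522913 (minus) for Timmdc1. Capitals mark the words found out of those searched.
Tomm5: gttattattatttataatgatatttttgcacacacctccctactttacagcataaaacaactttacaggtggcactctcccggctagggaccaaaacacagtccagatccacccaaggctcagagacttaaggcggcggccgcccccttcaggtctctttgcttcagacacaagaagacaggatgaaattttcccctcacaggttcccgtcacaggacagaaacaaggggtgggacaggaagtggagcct
Tomm22: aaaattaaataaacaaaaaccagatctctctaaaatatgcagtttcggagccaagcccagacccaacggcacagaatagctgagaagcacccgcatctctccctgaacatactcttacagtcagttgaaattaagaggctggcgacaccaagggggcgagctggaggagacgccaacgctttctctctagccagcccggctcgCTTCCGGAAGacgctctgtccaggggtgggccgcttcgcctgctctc
Tomm20: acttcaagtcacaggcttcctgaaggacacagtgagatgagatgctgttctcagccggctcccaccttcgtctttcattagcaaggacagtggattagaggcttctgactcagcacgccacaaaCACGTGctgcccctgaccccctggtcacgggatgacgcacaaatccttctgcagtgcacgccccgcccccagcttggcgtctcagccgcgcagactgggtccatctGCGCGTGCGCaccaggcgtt
Timmdc1: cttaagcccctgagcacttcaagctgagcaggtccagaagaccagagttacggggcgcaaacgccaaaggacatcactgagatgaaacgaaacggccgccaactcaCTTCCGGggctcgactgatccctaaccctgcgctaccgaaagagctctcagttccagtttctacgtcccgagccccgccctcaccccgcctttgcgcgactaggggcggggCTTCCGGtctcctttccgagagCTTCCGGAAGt

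Of the words searched on both strands Tomm5 held none, Tomm22 held 2 overlapping copies of the ETS word on opposite strands, Tomm20 held an E-box and an NRF1 word, and Timmdc1 held 4 ETS words, of which 2 overlap. The words were CCGGAAG for ETS factors, CACGTG for the E-box, AGATAA for GATA factors and, for NRF1, GCGC, any base, then TGCGC, and none of these holds another. They were counted in the whole 300-base window, which includes 50 bases after the start. The ETS word was in 14 of 29 member promoters (48.3%), in 9.93% of the promoters of all genes and in 23.7% of those of the genes tested. It was in 11 of the 22 members with a promoter that fell at 200 nM and in 2 of the 5 other members tested. The E-box was in 5 members (17.2%), against 8.09% of all genes and 12.6% of genes tested. It was in 4 of the 22 members that fell and 0 of the 5 others tested. The GATA word was in 3 members (10.3%), against 12.7% and 7.74%, and in 1 of the 22 and 1 of the 5. The NRF1 word was in 3, against 5.19% and 13.4%, and in 1 of the 22 and 2 of the 5. The 29 promoters include those of the untested Tomm20l and Timm8a2, and that of Tomm20l held the E-box and the GATA word. These are matches of letters, and binding was not measured.

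Among the small TIM chaperones 5 of 6 tested fell at 200 nM and 1 rose (all genes 39.5% and 40.5%), with a median of -0.84. Timm8a1 (chromosome X, 134537256 to 134541865, minus strand), which with Timm13 escorts inner membrane proteins, fell the most of all members. It had 18.1 and 15.8 CPM at 0 nM, 17.9 and 16.3 (12.5 nM), 16.98 and 15.8 (25 nM), 15.2 and 13.1 (50 nM), 12.9 and 13.2 (75 nM), 8.67 and 8.56 (100 nM), 5.61 and 5.27 (150 nM) and 2.303 and 2.796 (200 nM). From 100 nM upward the doses did not overlap. The last dose rested on 25 and 33 counts. The log2 change was -2.72 ± 0.18 (adjusted p = 9.96e-19), and -2.89 to -2.60 over fits that drop 1 library of either dose. An annotated pseudogene shares at least 95% identity with it, so its level is uncertain.

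Timm8b (chromosome 9, 50603910 to 50605320, plus strand), a close relative, moved the other way. Its libraries had 76.3 and 70.7 CPM at 0 nM, 75.1 and 78.6 (12.5 nM), 80.2 and 83.1 (25 nM), 89.96 and 90.99 (50 nM), 85.8 and 83.5 (75 nM), 93.1 and 90.5 (100 nM), 92.8 and 98.1 (150 nM) and 92.5 and 93.8 (200 nM). All libraries from 25 nM upward were above both 0 nM libraries. The log2 change was 0.30 ± 0.06 at 50 nM (adjusted p = 2.2e-05) and 0.34 ± 0.06 at 200 nM (adjusted p = 6.34e-07), although the call at 75 nM was lost without 0 nM replicate 2. With library size alone Timm8b was still called higher at 50 and 100 nM, but not at 200 nM (-0.04, adjusted p = 0.519).

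The pair that forms the carrier-escorting hexamer was first called at 100 nM. Timm9 (chromosome 12, 71123173 to 71136684, minus strand) had 97.6 and 98.7 CPM at 0 nM, 94.04 and 107 (12.5 nM), 98.95 and 109.7 (25 nM), 105 and 97.9 (50 nM), 87.1 and 94.96 (75 nM), 73.7 and 75.6 (100 nM), 52.8 and 57.6 (150 nM) and 36.1 and 29.1 (200 nM). From 100 nM upward the doses did not overlap. Its change was -1.59 ± 0.08 at 200 nM (adjusted p = 1.88e-16), with the largest step, -0.75, from 150 to 200 nM. Timm10, its partner, went from 99.6 and 88.6 to 47.4 and 51.2 CPM (-0.93 ± 0.07). Timm13, the partner of the Timm8 proteins, went from 238 and 233 to 141 and 141 CPM (-0.74 ± 0.04). Timm10b, the small TIM bound to the TIM22 complex, changed less (-0.39 ± 0.06) and was first called at 150 nM. It had 84.5 and 83.7 CPM at 0 nM, 88.5 and 85.5 (12.5 nM), 85.9 and 90.7 (25 nM), 86.3 and 85.01 (50 nM), 80.5 and 87.5 (75 nM), 79.7 and 76.1 (100 nM), 71.1 and 80.8 (150 nM) and 65.7 and 62.4 (200 nM), and the 200 nM libraries lay below all others.

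Timm22, the channel of the carrier translocase, changed the least of the members that fell. It had 56.5 and 56.5 CPM at 0 nM, 60.2 and 60.6 (12.5 nM), 56.9 and 61.4 (25 nM), 58.9 and 57.4 (50 nM), 63.02 and 58.8 (75 nM), 59.3 and 56.7 (100 nM), 53.1 and 55.9 (150 nM) and 48.4 and 49.1 (200 nM). The 200 nM libraries lay below all others, with a log2 change of -0.21 ± 0.07 (adjusted p = 0.0044), and 200 nM was the only dose at which it was called. Its partner Timm29 stands in the table under an older symbol, 1810026J23Rik, and is outside the naming rule of the members. That gene was at 63.9 and 50.2 CPM at 0 nM, 49.5 and 62.8 (12.5 nM), 90.5 and 58.2 (25 nM), 74.5 and 105 (50 nM), 139 and 139 (75 nM), 125 and 124 (100 nM), 118 and 114 (150 nM) and 109 and 115 (200 nM), and all libraries from 75 nM upward were above those at 0 nM (log2 change at 200 nM 0.97 ± 0.23, adjusted p = 0.00427).

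The TIM23 complex had 4 of 5 members lower at 200 nM and 1 higher (all genes 39.5% and 40.5%), with a median of -0.73. Timm50 (chromosome 7, 28305516 to 28312072, minus strand), the receptor that takes presequences from TOM, led. It was at 299.5 and 290.4 CPM at 0 nM, 299.8 and 309.6 (12.5 nM), 303 and 319 (25 nM), 269 and 267 (50 nM), 239 and 241 (75 nM), 212 and 195 (100 nM), 158 and 157 (150 nM) and 119 and 113 (200 nM). The doses from 50 nM upward did not overlap, and the change at 200 nM was -1.35 ± 0.04 (adjusted p = 4.89e-31). Timm23, the channel itself, was at 36.3 and 36.2 CPM at 0 nM, 39.6 and 41.5 (12.5 nM), 37.4 and 36.6 (25 nM), 35.2 and 38.5 (50 nM), 32.7 and 37.7 (75 nM), 31.1 and 28.3 (100 nM), 24.1 and 22.4 (150 nM) and 17.3 and 17.3 (200 nM), with the doses from 100 nM upward apart from each other and from all lower doses (log2 change at 200 nM -1.07 ± 0.10, adjusted p = 6.99e-14). It has 6 close copies in the annotation, none of them in the count table, so its level is uncertain. Timm21, which links the complex to TOM and to the respiratory chain, went from 65.7 and 63.4 to 44.5 and 36.3 CPM (-0.68 ± 0.07).

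The alternative subunits Timm17a and Timm17b diverged. Timm17a (chromosome 1, 135295213 to 135313778, minus strand) had 179 and 175 CPM at 0 nM, 185 and 180 (12.5 nM), 184 and 183 (25 nM), 189.9 and 189 (50 nM), 164 and 168 (75 nM), 152 and 153 (100 nM), 125 and 124 (150 nM) and 103 and 110.5 (200 nM) (log2 change at 200 nM -0.73 ± 0.05, adjusted p = 8.85e-20). Timm17b (chromosome X, 7899357 to 7908351, plus strand) had 84.8 and 83.8 CPM at 0 nM, 78.3 and 88.5 (12.5 nM), 85.02 and 82.05 (25 nM), 84 and 82.2 (50 nM), 84.5 and 82.8 (75 nM), 92.2 and 85.1 (100 nM), 103 and 95.8 (150 nM) and 99.6 and 98.1 (200 nM) (log2 change at 200 nM 0.23 ± 0.06, adjusted p = 0.000486). The 2 groups at 150 and 200 nM lay above all lower doses for Timm17b and below them for Timm17a. With library size alone Timm17b was lower at 200 nM (-0.15, adjusted p = 0.0169).

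**Figure D4:**
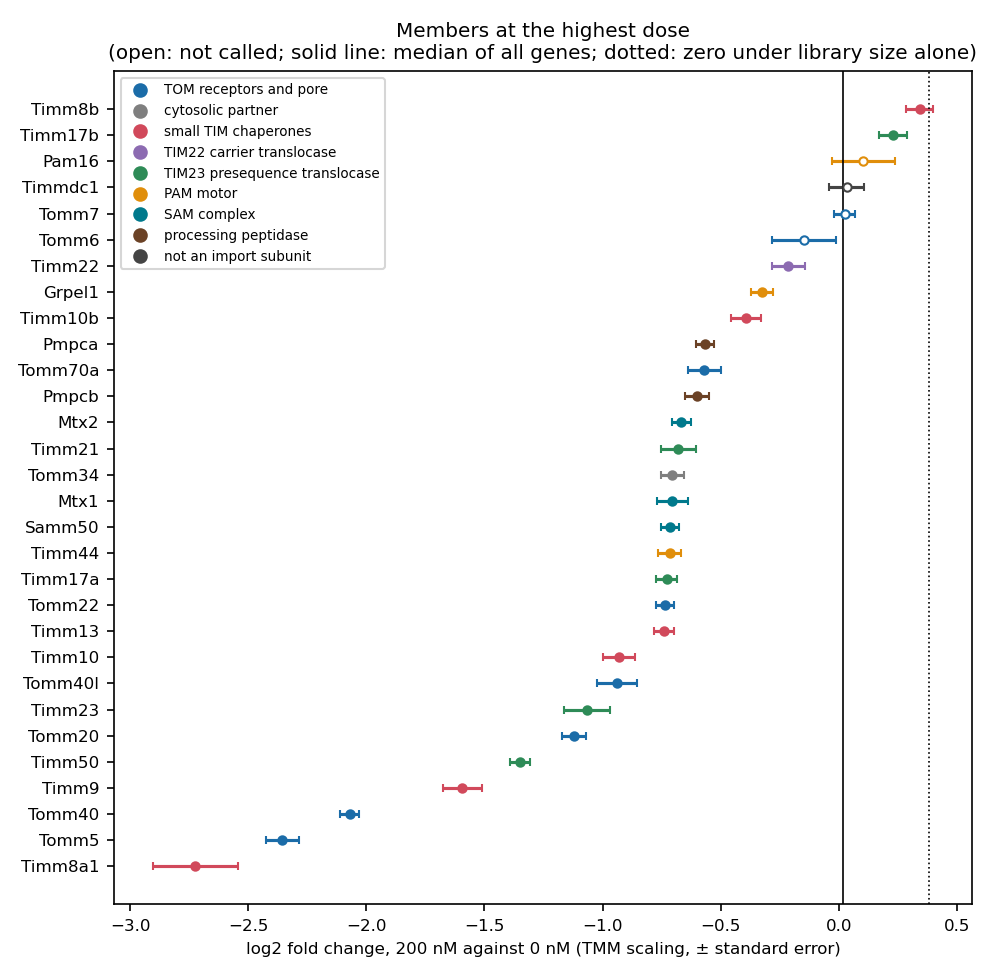
Log2 fold change of the 30 members at 200 nM against 0 nM with its standard error, coloured by group; filled points passed the test. The solid line is the median of all genes tested (0.02) and the dotted line is where 0 would lie with library size alone. Members run from -2.72 for Timm8a1 to 0.34 for Timm8b.

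In the PAM motor 2 of 3 members fell at 200 nM, where 39.5% of all genes did. Timm44, the tether of the motor's Hsp70, went from 166 and 178 to 104 and 105 CPM (-0.72 ± 0.05) and was already called at 75 nM. Grpel1, the nucleotide exchange factor, had 207 and 212 CPM at 0 nM, 224 and 221 (12.5 nM), 219 and 216 (25 nM), 225 and 221 (50 nM), 204 and 214 (75 nM), 201 and 212 (100 nM), 190.1 and 168 (150 nM) and 173 and 162 (200 nM). It was first called at 150 nM (-0.33 ± 0.05 at 200 nM). The 150 and 200 nM libraries overlapped each other and lay below those of all doses up to 100 nM. Pam16, a regulator of the motor's J protein, was at 13.7 and 15.4 CPM at 0 nM, 13.9 and 13.02 (12.5 nM), 13.4 and 14.97 (25 nM), 17.4 and 12.7 (50 nM), 15.4 and 15.5 (75 nM), 16.8 and 19.3 (100 nM), 14.9 and 16.5 (150 nM) and 16.2 and 15.1 (200 nM), and the 0 and 200 nM libraries overlapped (log2 change at 200 nM 0.10 ± 0.13, adjusted p = 0.482). Its call at 100 nM (0.31 ± 0.13, adjusted p = 0.0285) was lost with DESeq2, with library size alone, and without 0 nM replicate 1 or 100 nM replicate 2.

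All 3 SAM complex members fell at 200 nM, where 39.5% of all genes did. Samm50, the insertase, went from 300 and 302 to 187 and 180 CPM (-0.71 ± 0.04). The metaxins are its cytosolic subunits. Mtx1 had 95.5 and 95.2 CPM at 0 nM, 89.9 and 98.7 (12.5 nM), 91.2 and 105 (25 nM), 95.2 and 92.1 (50 nM), 91.8 and 81.6 (75 nM), 80.6 and 82.1 (100 nM), 67.4 and 69.3 (150 nM) and 59.97 and 57.1 (200 nM) (-0.70 ± 0.07 at 200 nM). Mtx2 had 311 and 304 CPM at 0 nM, 311 and 304 (12.5 nM), 295 and 307 (25 nM), 270.3 and 292 (50 nM), 256 and 258 (75 nM), 234 and 239 (100 nM), 215 and 218 (150 nM) and 198 and 190.4 (200 nM) (-0.67 ± 0.04 at 200 nM). In both, 150 nM lay below all lower doses and 200 nM below 150 nM. Mtx2 was first called at 50 nM (-0.13 ± 0.04, adjusted p = 0.00487) and Mtx1 at 100 nM.

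Both subunits of the processing peptidase fell at 200 nM, where 39.5% of all genes did. Pmpca had 298 and 292 CPM at 0 nM, 304 and 314 (12.5 nM), 299 and 308 (25 nM), 312 and 300.2 (50 nM), 287 and 273 (75 nM), 260.5 and 251 (100 nM), 231 and 222 (150 nM) and 198 and 200.1 (200 nM) (-0.57 ± 0.04 at 200 nM). Pmpcb, the catalytic subunit, had 162 and 170.5 CPM at 0 nM, 172 and 170 (12.5 nM), 167 and 176 (25 nM), 161 and 162 (50 nM), 143 and 150.4 (75 nM), 136 and 142 (100 nM), 119 and 129 (150 nM) and 106 and 113 (200 nM) (-0.60 ± 0.05 at 200 nM). The 200 nM libraries were the lowest in both. Their first calls were at 100 and 75 nM. The exons of Pmpca overlap those of Inpp5e on the other strand over 20.4% of their length. Timmdc1, which carries a Timm symbol but is an assembly factor of respiratory complex I, was at 46.0 and 44.1 CPM at 0 nM and 47.8 and 44.6 at 200 nM (0.03 ± 0.07, adjusted p = 0.684), and its libraries lay between 41.2 and 49.6 CPM at every dose.

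Ratios within a library were taken for 5 pairs of related subunits and tested against log2(dose/12.5 + 1) over 16 libraries. The test was a 2-sided permutation with 100000 resamples, adjusted over the 5 pairs. The ratios use the same counts as the changes given above, so they describe those changes and are no separate evidence. Permutation treats the libraries as independent, which the labels do not state. Timm8b over Timm8a1 went from 4.2 and 4.48 at 0 nM to 39.4 and 33.1 at 200 nM, a difference of 3.06 on the log2 scale (SD 0.07 at 0 nM and 0.18 at 200 nM). Pearson's r was 0.87 (permutation p = 4e-05, adjusted 0.0001) and Spearman's rho 0.97 (permutation p = 1e-05, adjusted 2.5e-05). Tomm40l over Tomm40 differed by 1.13 (SD 0.02 and 0.12), with r = 0.89 and rho = 0.91 (permutation p = 1e-05 for each, adjusted 5e-05 and 2.5e-05). A p of 1e-05 is the smallest these permutations can give. Timm17b over Timm17a went from 0.473 and 0.479 to 0.964 and 0.888, a difference of 0.96 (SD 0.01 and 0.08), with r = 0.77 (permutation p = 0.0007, adjusted 0.00117) and rho = 0.81 (p = 0.00033, adjusted 0.00055, permutation). Without the 2 libraries farthest from the median dose in nM, those at 200 nM, r was 0.87, 0.86 and 0.68 for these 3 pairs. On the log2 scale of the test the 0 nM libraries lie farther from the median, and r without them was not taken.

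The other 2 pairs gave no slope that passed. Mtx2 over Mtx1 went from 3.26 and 3.2 without beta-estradiol to 3.29 and 3.33 with 200 nM, a log2 difference of 0.04 (r = -0.14, rho = -0.07, permutation p = 0.608 and 0.816, adjusted 0.608 and 0.816). Without the 200 nM libraries r was -0.43. Pmpcb over Pmpca went from 0.543 and 0.585 to 0.535 and 0.566 over the same range, a difference of -0.03 (r = -0.25, rho = -0.22, permutation p = 0.354 and 0.42, adjusted 0.443 and 0.524; r = -0.33 without 200 nM). The SDs at 0 and 200 nM were 0.02 and 0.01 for the metaxins and 0.08 and 0.06 for the peptidase. The 0 and 200 nM libraries of the peptidase pair overlapped, and those of the metaxin pair did not, by a small margin.

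**Figure D5:**
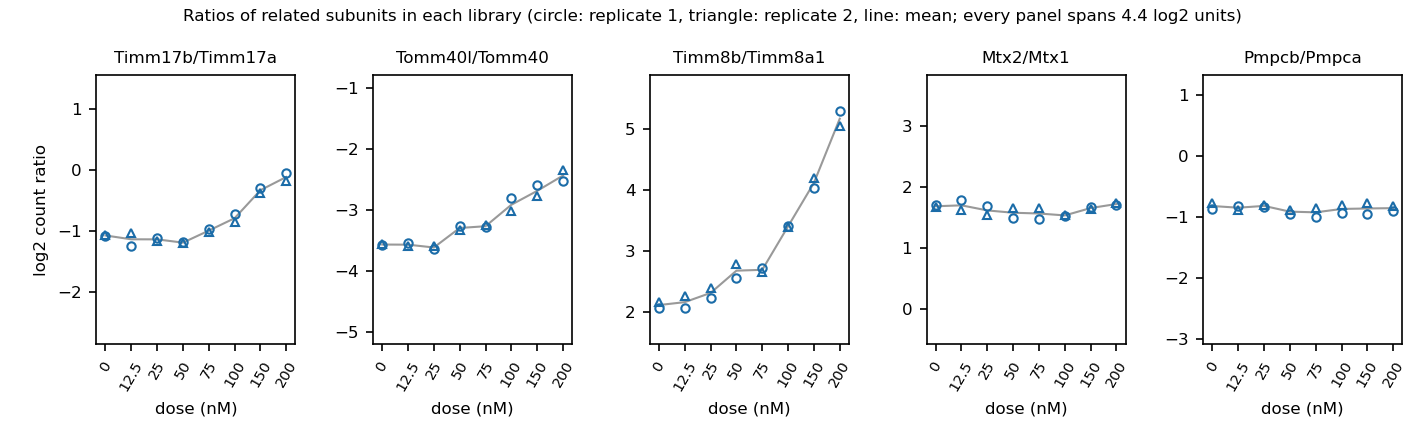
Log2 ratio of counts of 5 pairs of related subunits in each library against dose, every panel spanning the same number of log2 units. Timm8b over Timm8a1 climbs by 3.06 from 0 to 200 nM, Tomm40l over Tomm40 by 1.13 and Timm17b over Timm17a by 0.96, while Mtx2 over Mtx1 and Pmpcb over Pmpca move by 0.04 and -0.03.

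Levels of different genes were compared per kilobase of merged exons, which makes genes with long alternative exons look low. At 0 nM the highest levels were those of Tomm22 at 198 CPM per kilobase, Timm13 at 172, Tomm5 at 166, Tomm7 at 154 and Timm8b at 142. Tomm40 was at 123 and Timm50 at 110. At 200 nM the order of the TOM subunits was another, with Tomm7 at 157 CPM per kilobase, Tomm22 at 119, Tomm5 at 32.4, Tomm6 at 31.2, Tomm40 at 29.2 and Tomm20 at 17.5. Tomm6 differed there from both Tomm5 and Tomm40 by less than its own SD of 2.79. The lowest level of a tested member at 200 nM was that of Timm8a1, at 1.79 CPM per kilobase, and at 0 nM that of Pam16, at 5.98. Timm17b was at 33.0 against 22.5 for Timm17a at 0 nM, and at 38.7 against 13.5 at 200 nM.

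Other genes of the import pathway and related mitochondrial genes, outside the naming rule, were counted too. The shares of all genes were 39.5% lower and 40.5% higher at 200 nM. Of 37 tested, Timm29 included, 17 fell and 12 rose, which is not far from those shares, with a median log2 change of -0.22, and with library size alone 26 fell and 6 rose. Of 7 chaperones and motor partners of the matrix 6 fell, with a median of -1.01. Hspd1, the matrix chaperonin, was at -2.19 ± 0.03 and Hspa9, the Hsp70 of the motor, at -1.58 ± 0.03, while Dnajc15, a J protein of the motor, rose by 0.79 ± 0.06. In the disulfide relay that folds the small TIM proteins, Chchd4, the oxidoreductase, was at -2.55 ± 0.06 and Aifm1, its binding partner, at -1.21 ± 0.06. Gfer, which reoxidises Chchd4, was at 0.27 ± 0.06, and at -0.11 with library size alone.

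Of 7 genes listed as other translocases, insertases and their partners 4 fell and 2 rose (all genes 39.5% and 40.5%). Agk, a lipid kinase that is also a TIM22 subunit, was at -2.61 ± 0.18 and Dnajc11, a partner of SAM, at -0.59 ± 0.04. Ghitm, which is on that list though neither a translocase nor an insertase, was at 0.40 ± 0.03. Romo1, a TIM23 subunit, was at 0.13 ± 0.05. With library size alone Ghitm was at 0.02 and not called (adjusted p = 0.57), and Romo1 was at -0.25. Of 13 other peptidases 3 fell and 5 rose (median -0.01), no more in either direction than the share of all genes. Clpp, the matrix protease, was at -1.46 ± 0.06 and Oma1 at -1.10 ± 0.12, whereas Pitrm1, which degrades cleaved presequences, rose by 0.87 ± 0.03 and Afg3l2 by 0.47 ± 0.04. In MICOS, the cristae complex that contacts SAM, 2 of 6 fell and 2 rose. That is no more in either direction than the share of all genes. Chchd6 was at -1.60 ± 0.13 and Immt at -0.46 ± 0.04. Apool was at 0.54 ± 0.06 and Chchd3 at 0.11 ± 0.04, and Chchd3 turned to -0.28 with library size alone. Adjusted p-values of the genes named here ran up to 0.0179 for Romo1.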

How the data were processed

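RNA of 16 libraries, 2 at each of 8 doses of beta-estradiol, was prepared with Smart-seq2 per the labels' protocols, which keeps no strand and no molecular identifiers. The authors deposited raw counts per gene symbol, used here as they stand. The submitters' processing notes name bcl2fastq, STAR and mm10, and which program counted, with which annotation, and how multiply mapped reads were treated is not given.

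Genes were kept by filterByExpr of edgeR 4.0.16 (R 4.3.3) with dose as the group, and scaled by TMM. A quasi-likelihood model with robust dispersion and dose as a factor was fitted to all 16 libraries. P-values were adjusted by Benjamini-Hochberg over all genes within a contrast, and genes under 0.05 were called. Peaks and dips used the larger of the p-values against 0 and 200 nM. The standard error is the log2 fold change divided by the square root of F. Ratios used a prior count of 0.5. The fit was tested on simulated counts. DESeq2 1.42.0, other scalings, no filter, a replicate block and leaving out each library were the alternatives. Positions and exon lengths came from GENCODE M21 (GRCm38), where all 32 members had 1 place. Of them 16 share exon bases with another gene and 6 have a copy of at least 95% identity over 200 bases, none of which is in the count table. The levels of these members are less certain, and only some of them are marked as such above.

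Members and lists were chosen with earlier results of these data known. All tested members are named, as are the 2 higher and 2 lower genes of smallest adjusted p in each other list. Values by library at every dose are given for the 7 members that fell at least 2-fold. They are also given for some of the others, including members that changed little.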

Additional observations from a re-analysis of the deposited data

How the results depend on the processing

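The fall of the members kept its direction under every alternative, with 24 lower at 200 nM under RLE scaling, without Rn45s and globin genes, without a filter, with DESeq2 and with the replicate block, and 28 with library size alone. Library size alone gave 1 lower at 25 nM, 20 lower and 0 higher at 75 nM, 1 higher at 100 nM, 0 higher at 150 and 200 nM, 0 higher from 25 to 50 nM and from 100 to 150 nM, 0 higher on the slope, and 1 peak at 50 nM, Timm8b. It turned Pam16 to -0.277, Timmdc1 to -0.347, Tomm7 to -0.356, Timm8b to -0.039 and Timm17b to -0.152 at 200 nM. Only the scaling differed in this fit, and which genes made the scalings differ was not tested. Without a filter 1 member was higher at 25 nM and 2 at 50 nM, with 1 peak there, in each case Tomm6 added, and Tomm7 was at -0.006. DESeq2 gave 1 higher at 100 nM, 8 lower from 75 to 100 nM, and 0 higher from 25 to 50 nM and from 100 to 150 nM, and the cause was not tested.

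With the replicate block 2 members were higher at 50 nM, with 1 peak there, again Tomm6, and no other count or named value changed its call. The labels do not say whether equal replicate numbers belong together. Over 28 pairs of doses the correlation of same-numbered deviations ran from -0.076 to 0.104. These low values over all genes cannot exclude a pairing that touches only some genes. Leaving out each library of the doses compared gave 1 to 2 higher and 3 to 5 lower at 50 nM, 0 to 1 higher at 75 nM, 1 to 2 higher at 100 nM, 0 to 0 higher from 25 to 50 nM, 7 to 10 lower from 75 to 100 nM, 0 to 1 higher from 100 to 150 nM and 0 to 1 peaks at 50 nM. At 200 nM it turned Timmdc1 to -0.012 (without 0 nM replicate 2) and -0.02 (without 200 nM replicate 1), in a range of -0.02 to 0.075, and Tomm7 to -0.001 (without 0 nM replicate 2), in a range of -0.001 to 0.021. With 2 libraries a dose, a lone library was taken to vary like the others. Depth limited Timm8a1, with 25 counts at its lowest, and left Tomm20l and Timm8a2 untested.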
